A study of Mus musculus with 105 samples.

Results

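Newly made microRNAs (miRNAs) were followed over time in mouse embryo-derived fibroblasts that lack the long noncoding RNA Cyrano, and were set against 2 time courses of wild-type fibroblasts. The cells had been fed 5-ethynyluridine, a uridine analogue that enters RNA as it is made and allows that RNA to be pulled down, so that a labelled library holds the small RNA made during the labelling time. All 6 labelled libraries of the knockout course (2, 4, 8, 24 and 72 h and 1 week) were taken with the 12 labelled libraries of wild-type courses 1 and 2 at the same times, 18 of the 105 samples of the series. The 18 input libraries, made from total RNA of the same courses and times, were used beside them. Each table listed 1013 miRNAs, of which 251 had no count in the 18 labelled libraries, 343 had counts but fell under the expression filter of edgeR, and 419 were tested.

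Knockout and wild-type cells carried the same labels apart from the genotype, which stands only in the sample titles. Strain was C57BL/6J, passages were 5 to 15, the cells had been kept contact-inhibited for 5 days before labelling, and the 5-ethynyluridine dose was 400 µM. The knockout is 1 course, and the number of clones or animals behind it is not given. Small-RNA tables hold no value for Cyrano itself, so the knockout could not be checked on its own target. No label says that libraries came from separate animals or cultures. The labelling times stand in for replicates here, and p-values measure only the spread between these libraries. In such bulk samples fewer cells of a type and less RNA per cell cannot be told apart.

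Cyrano (gene Oip5os1) carries a conserved site that pairs with miR-7 along most of its length. Such extended pairing makes the Argonaute protein that holds the miRNA a target for decay, and the miRNA is lost with it, a process called target-directed miRNA degradation. The miR-7 level is in turn linked to the circular RNA Cdr1as, which carries many miR-7 sites and a site that miR-671 can cleave. Labelling over time bears on this because a miRNA that is destroyed quickly reaches its plateau early and then makes up a shrinking share of the labelled pool, while stable miRNAs keep accumulating.

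The sequences of the miRNAs on which the results turn are shown 5′ to 3′ as RefSeq gives them (GRCm38.p6), with the seed, bases 2 to 8, in capitals. Of the 1013 miRNAs, 831 matched an entry there, and 341 of the 419 tested. The miR-7 strands come first, since miR-7a-5p is the guide strand that pairs with Cyrano and miR-7a-1-3p is the partner strand of the same hairpin, Mir7-1.
miR-7a-5p: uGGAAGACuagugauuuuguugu
miR-7b-5p: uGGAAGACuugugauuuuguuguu
miR-7a-1-3p: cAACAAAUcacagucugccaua
miR-671-5p: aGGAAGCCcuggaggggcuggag
miR-671-3p: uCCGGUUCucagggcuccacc
The next 2 pairs share a seed within each pair, and the first of each pair was far higher in the knockout while its partner was not called.
miR-10a-5p: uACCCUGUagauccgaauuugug
miR-10b-5p: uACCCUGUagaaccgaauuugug
miR-196a-5p: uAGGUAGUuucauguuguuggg
miR-196b-5p: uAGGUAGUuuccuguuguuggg
The miR-181 guides share 1 seed and differed in direction by locus.
miR-181a-5p: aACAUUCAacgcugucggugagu
miR-181b-5p: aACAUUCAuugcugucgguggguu
miR-181c-5p: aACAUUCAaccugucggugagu
miR-181d-5p: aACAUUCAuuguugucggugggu
The last 3 include a pair with 1 seed whose difference grew with labelling time, and the let-7 member that was lower among labelled than among input RNA.
miR-221-3p: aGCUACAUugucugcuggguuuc
miR-222-3p: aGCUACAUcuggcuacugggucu
let-7b-5p: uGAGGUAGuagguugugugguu

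Labelled libraries held 284662 to 878744 miRNA counts in the knockout course, 426426 to 2463188 in wild-type course 2 and 131291 to 598887 in wild-type course 1, whose unlabelled 0 h control had 21334. Input libraries held 5543048 to 7807121 counts in the knockout and 2900666 to 9117300 over both wild-type courses. Levels are given as CPM, counts per 1e+06 counts of the library after TMM scaling, which sets each library against the others, so they are shares of the labelled or of the input pool and not amounts. The mix of synthetic standards added to each library differed in wild-type course 1, so standards set the knockout against wild-type course 2 but not against both courses. The standards of 22, 24 and 26 nt made up 98.3 to 99.6% of standard counts in knockout labelled libraries and 99.2 to 99.8% in wild-type course 2, but 0.218 to 0.709% in wild-type course 1. The 72 h library of wild-type course 2 held 21396 counts of the liver miRNA miR-122-5p, and leaving it out is given where it changes a call. The fibroblast marker list (miR-21a-5p, miR-143-3p, miR-199ab-3p and others) summed to 105471 to 353138 CPM in the knockout, 133939 to 315315 in wild-type course 2 and 126295 to 395987 in course 1. Muscle markers summed to 8.33 to 31.4 CPM in the knockout, 58.2 to 118 in wild-type course 2 and 11.9 to 47.6 in course 1. Endothelial or liver markers summed to 63.5 to 266, 39.5 to 11609 and 76.4 to 344 CPM in the same order. Blood, epithelial and pluripotency markers summed to at most 24.2, 23.5 and 9.5 CPM in any labelled library, and miR-302a, miR-302b and miR-302d were at 0.

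Labelled miR-7a-5p stayed high in the knockout at every time and was much lower in both wild-type courses from 24 h on. It had 3370.2, 3698, 4319.9, 3767, 3074 and 3284 CPM at 2, 4, 8, 24 and 72 h and 1 week in the knockout. Wild-type course 2 had 2183, 1667, 2129, 1027, 296 and 214 CPM at the same times, and wild-type course 1 had 1588, 1943, 2422, 1036, 279 and 239 CPM. The knockout library was above both wild-type libraries at all 6 times, and its lowest value lay above the highest wild-type value. The ratio of the knockout to the wild-type mean was 1.79, 2.05 and 1.90 at 2, 4 and 8 h, then 3.65 at 24 h, 10.7 at 72 h and 14.5 at 1 week. Over all times the log2 difference was 2.13 ± 0.36 (SE; edgeR quasi-likelihood test, adjusted p = 0.00095), rank 21 of the 419 by p. Against wild-type course 2 alone it was 2.00, and against course 1 alone 1.98. Wild-type course 2 minus course 1 was −0.03 (adjusted p = 0.87) for miR-7a-5p, a difference smaller than the spread between libraries.

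**Figure D1:**
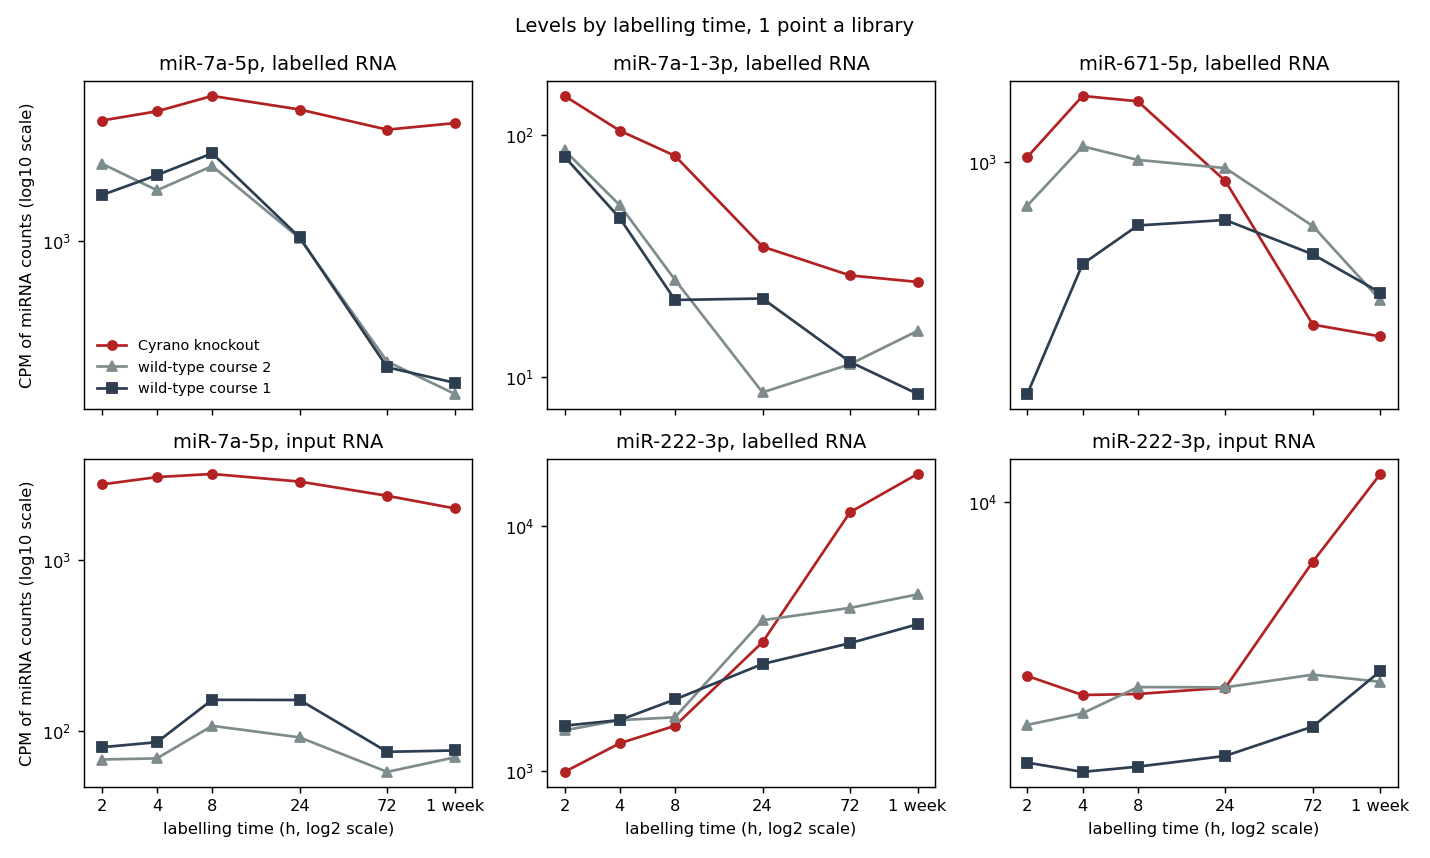
Level (CPM, log10 axis) against labelling time (h, log2 axis) for labelled miR-7a-5p, miR-7a-1-3p, miR-671-5p and miR-222-3p and for input miR-7a-5p and miR-222-3p, with 1 point a library and 1 line a course (knockout, wild-type course 2, wild-type course 1). Labelled miR-7a-5p is level between 3074 and 4319.9 CPM in the knockout and ends at 214 and 239 CPM in the wild-type courses, and input miR-7a-5p is separated by genotype at all 6 times.

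Input miR-7a-5p, the standing level, differed more than the labelled level did. It was 2783, 3072, 3205, 2892, 2388 and 2015 CPM in knockout inputs, against 68.3, 69.4, 108, 92.1, 57.8 and 70.3 CPM in wild-type course 2 and 80.6, 86.3, 153, 152, 75.8 and 77.2 CPM in course 1. The input log2 difference was 4.95 ± 0.14 (SE, edgeR, adjusted p = 4.8e-11). Knockout miR-7a-5p had labelled-to-input ratios close to those of an even share, 1.21, 1.20, 1.35, 1.30, 1.29 and 1.63 by time. In wild-type course 2 the ratio was 32.0, 24.0, 19.8, 11.2, 5.12 and 3.04, and in course 1 it was 19.7, 22.5, 15.9, 6.80, 3.69 and 3.10. Wild-type ratios were above every knockout ratio at all 6 times and were nearest to them at 1 week. The interaction of library type with genotype was −2.70 ± 0.43 on the log2 scale (SE, edgeR, adjusted p = 0.00085), and −2.80 (adjusted p = 0.00097) without the 72 h labelled library of wild-type course 2.

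The difference in labelled miR-7a-5p grew with time. The log2 ratio of knockout to wild type changed by 0.52 ± 0.057 per doubling of the labelling hours (SE, edgeR interaction, adjusted p = 4.4e-04), the lowest p of 431 miRNAs tested in this way. It kept its call without any 1 of the 6 times. Over 2 to 24 h alone the change was 0.26 ± 0.087 and was not called (adjusted p = 0.998, unadjusted p = 0.017). The same interaction in input RNA was −0.07 per doubling, and between the wild-type courses it was −0.05 in labelled RNA (adjusted p = 0.61). With the summed standards in place of TMM it was 0.39 for miR-7a-5p and not called, over courses whose standards differ.

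Between the knockout and wild-type course 2, which share the mix of standards, labelled miR-7a-5p could also be read per standard count. It had 12.9, 24.7, 56.2, 84.1, 105 and 136 counts per 1000 standard counts in the knockout at 2, 4, 8, 24 and 72 h and 1 week, against 6.49, 9.55, 27.2, 20.9, 14.04 and 14.35 in wild-type course 2. On this scale the knockout was higher at each time than at the one before, while wild-type course 2 was highest at 8 h. The ratio was 1.99, 2.58, 2.06, 4.02, 7.48 and 9.46 by time. The log2 difference for miR-7a-5p was 1.91 ± 0.30 and its change per doubling of hours 0.37 ± 0.065 (SE, edgeR on the standards, adjusted p = 1.2e-04 and 1.8e-04), beside 2.00 and 0.44 ± 0.059 with TMM on the same libraries.

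A single-exponential approach to plateau, fitted to labelled counts per standard count within each course, gave miR-7a-5p a half-life of 11.4 h (95% interval of the fit 7.50 to 17.4) in the knockout. The wild-type half-lives were 2.72 h (1.63 to 4.22) in course 2 and 1.40 h (0.632 to 2.33) in course 1. The knockout interval lay above both wild-type intervals, and the ratio of 5.85 to the geometric mean of the wild-type values ranked sixth of 171 fitted miRNAs. The fit searched 0.25 to 1680 h, and among the 158 miRNAs with no value at either edge the ratio ranked 3. These values are a description, since each course gives 1 fit. The interval widths come from a noise set at 0.2 and were not estimated from these libraries, so their separation is not a test. The fitted curve can only rise to a plateau. Per 1000 standard counts, wild-type course 2 fell from 27.2 at 8 h to 14.35 at 1 week, which that curve cannot follow. The whole set moved too. The median half-life was 19.4 h in the knockout, 36.8 h in wild-type course 2 and 15.2 h in course 1, so that the median knockout to wild-type ratio was 0.838 and the median ratio of course 2 to course 1 was 2.64.

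The partner strand miR-7a-1-3p was also higher in the knockout, at all 6 times, with no called change over time. It had 145, 104, 82.1, 34.6, 26.3 and 24.8 CPM in knockout labelled libraries, 86.4, 51.4, 25.3, 8.66, 11.3 and 15.5 CPM in wild-type course 2 and 81.4, 45.4, 20.9, 21.1, 11.6 and 8.54 CPM in course 1. The 3 courses were each highest at 2 h. The log2 difference was 1.21 ± 0.22 (SE, edgeR, adjusted p = 0.0012), and 1.25 against each wild-type course alone. Its change per doubling of hours was 0.01 for miR-7a-1-3p (adjusted p = 1), a value whose sign differs between settings. Input miR-7a-1-3p ran from 36.1 to 43.0 CPM in the knockout, 15.7 to 24.1 in wild-type course 2 and 15.7 to 24.2 in course 1, a log2 difference of 0.98 (adjusted p = 2.5e-05). Labelled-to-input ratios of miR-7a-1-3p went in parallel in all courses, with 3.84 at 2 h and 0.683 at 1 week in the knockout, 3.59 and 0.706 in wild-type course 2 and 3.56 and 0.544 in course 1. Without the 2, 4 and 8 h libraries the log2 difference was 0.98 for miR-7a-1-3p and no longer called (adjusted p = 0.17).

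The other miR-7 strands were scarce. The miR-7b-5p guide, which has the seed of miR-7a-5p, had 11 labelled counts in all in the knockout, 5 in wild-type course 2 and 0 in course 1, and 23 input counts in the knockout against 0 in both wild-type courses. Strands miR-7a-2-3p and miR-7b-3p had no count in any of these libraries. Mature miR-7a-5p is annotated at both Mir7-1 (chromosome 13, 58392841 to 58392863, minus strand, within the span of Hnrnpk) and Mir7-2 (chromosome 7, 78888295 to 78888317, plus strand), so its counts cannot be assigned to a locus. Only miR-7a-1-3p (chromosome 13, 58392800 to 58392821) is specific to Mir7-1.

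Guide strand miR-671-5p, which can cleave Cdr1as, was not called between the genotypes. It had 1034, 1572, 1515, 877, 327 and 302 CPM in knockout labelled libraries, 741, 1112, 1013, 958, 644 and 387 CPM in wild-type course 2 and 204, 496, 646, 671, 530 and 408 CPM in course 1. The knockout was above both courses at 2, 4 and 8 h and below both at 72 h and 1 week. The log2 difference over all times was 0.37 ± 0.31 for miR-671-5p (SE, edgeR, adjusted p = 0.345). The change with labelling time was −0.30 per doubling (adjusted p = 0.30), and it was called with course as a replicate block (−0.31, adjusted p = 0.0019) and by DESeq2 (−0.34, adjusted p = 0.011). Fitted half-lives of miR-671-5p were 3.17 h (1.95 to 4.82) in the knockout, 12.7 h (8.38 to 19.0) in wild-type course 2 and 12.7 h (8.19 to 20.3) in course 1, and the ratio ranked 169 of 171 (157 of the 158 off the edges). Its input level was lower at 72 h in the knockout, with 177 CPM there and 340 to 459 CPM at the other times. The passenger strand miR-671-3p was higher in the knockout by 1.02 ± 0.28 (SE, edgeR, adjusted p = 0.015) and was not called without the 24 h libraries (0.97, adjusted p = 0.059) or the 72 h libraries (0.91, adjusted p = 0.072).

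Over all miRNAs, 124 of the 419 tested (29.6%) differed in labelled level between knockout and wild type. Of these, 63 (15%) were higher and 61 (14.6%) were lower in the knockout, and 207 had an unadjusted p below 0.05. DESeq2 called 207, of which 81 were higher and 126 lower, and the summed standards 14, all higher. Against wild-type course 2 alone the standards called 184 of 386, 86 higher and 98 lower. Between wild-type courses 2 and 1, 267 of 412 miRNAs (64.8%) differed, with 131 (31.8%) higher and 136 (33%) lower in course 2. The count of 124 comes from a fit that holds the difference between the wild-type courses in its spread, so it is not set against the 267. Fits of 2 courses at a time called 213 of 386 (55.2%) for the knockout against wild-type course 2 and 255 of 411 (62%) against course 1. More than 2-fold differences in those fits numbered 122 (31.6%) for the knockout against course 2, 155 (37.7%) against course 1 and 149 (36.2%) between the wild-type courses. With 1 knockout course, a difference of genotype and a difference of culture cannot be told apart. With course as a replicate block the knockout calls were 237, with 108 higher and 129 lower. With counts summed to 1 value a course edgeR called none of 506.

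**Figure D2:**
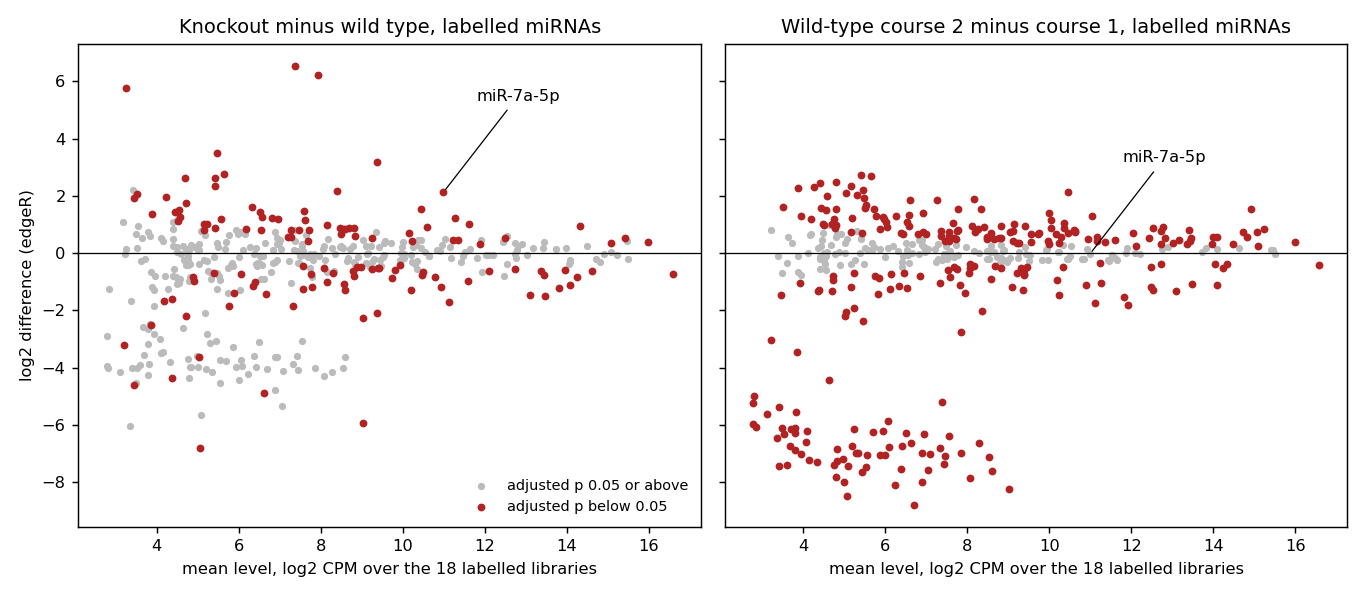
The log2 difference of labelled level (edgeR) against mean level (log2 CPM over the 18 labelled libraries) for each miRNA, on the left for knockout minus wild type and on the right for wild-type course 2 minus course 1, with adjusted p below 0.05 in red and all others in grey. miR-7a-5p lies at 2.13 on the left and at −0.03 on the right, where 267 of 412 miRNAs are red.

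A second reading asked the knockout to differ from each wild-type course on its own. These fits leave the difference between the wild-type courses out of their spread, so the reading is not stricter throughout. Of the 213 called against wild-type course 2 alone, 115 (29.8%) were higher and 98 (25.4%) lower. Of the 255 called against course 1 alone, 121 (29.4%) were higher and 134 (32.6%) lower. In both, and in the same direction, 105 of the 419 (25.1%) were called, 65 (15.5%) higher and 40 (9.55%) lower. The knockout library lay outside both wild-type libraries on the same side at all 6 times for 70 miRNAs (16.7%), above them for 38 (9.07%) and below them for 32 (7.64%), and all 70 were among the 124. Taken 2 courses at a time, the knockout lay on 1 side of wild-type course 2 at all times for 180 (43%) and of course 1 for 225 (53.7%), and wild-type course 2 lay on 1 side of course 1 for 232 (55.4%). The 10 miRNAs with the largest differences in each direction among the 70 are described next.

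Highest above wild type were miRNAs of the Hox clusters, which lie between the Hox genes that pattern the body axis. Labelled miR-10a-5p (chromosome 11, 96317186 to 96317208, plus strand, within the span of Hoxb3) had 315, 435, 544, 594, 471 and 483 CPM in the knockout, a single count in 6 libraries of wild-type course 2, and 15.3, 16.2, 20.9, 10.6, 11.6 and 4.27 CPM in course 1. Its log2 difference was 6.54 ± 1.03 (SE, edgeR, adjusted p = 0.00058), and in the plot of differences by time it is the darkest row. Its passenger miR-10a-3p had 73 labelled counts in the knockout, 0 in wild-type course 2 and 1 in course 1, too few in wild type for a fold. The wild-type courses themselves differed for miR-10a-5p, by −5.20 (adjusted p = 1.1e-06). Input levels were separated in the same way, at 389 to 495 CPM for miR-10a-5p in the knockout, at most 0.602 CPM in wild-type course 2 and 3.84 to 13.9 CPM in course 1.

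Labelled miR-196a-5p, which represses Hoxb8, had 302, 436, 588, 822, 875 and 1200 CPM in the knockout, 1.27, 5.93, 1.10, 8.66, 4.31 and 12.3 CPM in wild-type course 2 and 5.09, 6.49, 35.7, 26.4, 15.4 and 6.40 CPM in course 1. Its log2 difference was 6.21 ± 0.53 (SE, edgeR, adjusted p = 5.1e-06). The seed partners of miR-10a-5p and miR-196a-5p were not called. The log2 difference was 0.41 for miR-10b-5p (adjusted p = 0.059) and 0.31 for miR-196b-5p (adjusted p = 0.085). Of the 4 listed Hox-cluster guides, 2 were higher and none lower in the knockout, beside 15% higher and 14.6% lower among all miRNAs tested. Between the wild-type courses 1 of these guides was higher and 2 were lower in course 2, beside 31.8% and 33% among all tested. Other tested strands of these loci, miR-10a-3p among them, are outside this count.

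Further X-linked and other miRNAs followed. The guide miR-672-5p had 937 to 2494 CPM in the knockout, 73.4 to 162 CPM in wild-type course 2 and 53.4 to 429 CPM in course 1, a log2 difference of 3.18 ± 0.28 (SE, edgeR, adjusted p = 5.1e-06), and its partner strand miR-672-3p differed by 3.49. The neighbours miR-201-5p and miR-547-3p, which start at 67988135 and 67988383 on chromosome X, were higher by 2.75 and 2.64 (adjusted p = 0.012 and 0.010). Both were also higher in wild-type course 2 than in course 1, by 2.70 and 2.72. Strand miR-193b-3p had 272 to 1179 CPM in the knockout, 121 to 284 CPM in wild-type course 2 and 51.2 to 148 CPM in course 1, and was higher by 2.18 ± 0.31 (SE, edgeR, adjusted p = 0.00025). The others of the 10 were miR-455-3p.1 (2.34) and miR-483-3p.1 (2.64), both called.

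Lower in the knockout were the miR-181 guides of chromosome 8. Labelled miR-181c-5p (84178924 to 84178945, minus strand) had 95.3, 57.9, 95.2, 165, 167.9 and 297 CPM in the knockout, 331, 356, 392, 693, 1013 and 1226 CPM in wild-type course 2 and 316, 347, 497, 888, 1218 and 1223 CPM in course 1. At each time the knockout was below both, and the log2 difference of −2.26 ± 0.14 (SE, edgeR, adjusted p = 3.0e-07) had the lowest p of all miRNAs tested. Wild-type courses 2 and 1 differed by −0.17 for miR-181c-5p (adjusted p = 0.27). Its neighbour miR-181d-5p (84178759 to 84178781) had a log2 difference of −2.09 ± 0.22 (SE, edgeR, adjusted p = 2.3e-05), and its partner strand miR-181c-3p had a log2 difference of −2.20. The miR-181 guides made from chromosomes 1 and 2 carry the same seed and were not called lower. The log2 difference was 0.54 for miR-181a-5p (adjusted p = 0.012) and 0.35 for miR-181b-5p (adjusted p = 0.066).

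A second pair lies within the span of the serotonin receptor gene Htr2c on chromosome X. Labelled miR-1298-5p had 6 counts in all in the knockout, 93 in wild-type course 2 and 74 in course 1 (log2 −4.35, adjusted p = 0.0010). Its neighbour miR-1264-3p had 2 counts in the knockout, 41 in wild-type course 2 and 35 in course 1 (adjusted p = 0.0021). Both were also lower in wild-type course 2 than in course 1, with log2 differences of −1.33 for miR-1298-5p and −1.45 for miR-1264-3p. The remaining members were miR-135a-5p (−3.62), miR-135b-5p (−1.85), miR-21a-3p (−1.86), miR-3102-3p.2-3p (−1.60) and miR-33-5p (−1.70). Strand miR-33-5p, which lies in Srebf2 and represses the cholesterol exporter Abca1, had an adjusted p of 0.032, and of 0.056 to 0.10 without the filter on low counts or without any 1 of the later 5 times. For miR-135b-5p the call was lost without the 4 h (adjusted p = 0.053) or the 8 h libraries (0.060).

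**Figure D3:**
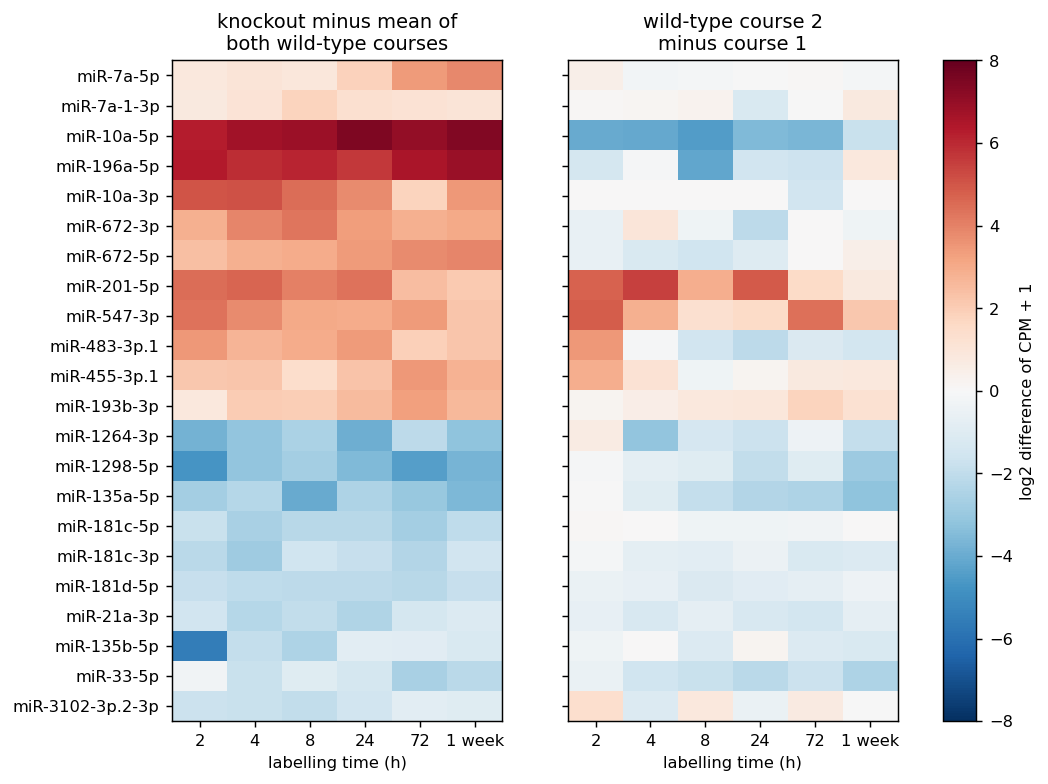
Log2 difference of labelled CPM + 1 at each labelling time (h) for both tested strands of Mir7-1 and the 20 miRNAs with the largest differences, on the left for knockout minus the mean of both wild-type courses and on the right for wild-type course 2 minus course 1, with red for positive and blue for negative values. The 20 were chosen for lying on 1 side of both wild-type courses at all times, so their constant sign on the left is given by that choice. On the left miR-7a-5p deepens from 24 h, while on the right miR-10a-5p, miR-201-5p and miR-547-3p also show strong colour.

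Among the 10 most abundant labelled miRNAs of the knockout, 5 were called, beside 29.6% of all tested, and all differences were below 1 on the log2 scale. The antiproliferative miR-34a-5p, a p53 target, had 9541, 16081, 22850, 38786, 51613 and 51347 CPM in the knockout, 7130, 8556, 9763, 16352, 18113 and 18541 CPM in wild-type course 2 and 7727, 11602, 15001, 21078, 24558 and 21525 CPM in course 1. It was above both at all times, by 0.95 ± 0.14 (log2, SE, edgeR, adjusted p = 0.00039). Of the 10 with the highest mean, miR-199ab-3p (0.55), miR-26a-5p (0.38) and miR-16-5p (0.34) were also called higher and miR-21a-5p (−0.72) lower. The call was lost without the 24, 72 h or 1 week libraries for miR-26a-5p (adjusted p = 0.10, 0.13 and 0.084) and without the 4, 8 or 24 h libraries for miR-21a-5p (adjusted p = 0.051, 0.060 and 0.060). Not called were miR-125b-5p (0.43), let-7i-5p (−0.21), miR-24-3p (−0.06), miR-27a-3p (0.04) and miR-23a-3p (−0.04). The last 3 lay between the wild-type courses, since miR-23a-3p differed by −0.59 from course 2 and by 0.99 from course 1.

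Groups of related miRNAs were read by how many members were called, beside 29.6% of all tested and an overall median log2 difference of −0.19. By direction the shares were 15% higher and 14.6% lower in the knockout. Between the wild-type courses they were 31.8% higher and 33% lower in course 2. Of 9 tested let-7 guides, which repress Lin28 and Hmga2, 4 were lower and none higher, with a median of −0.36. These were let-7b-5p (−1.23), let-7d-5p (−0.62), let-7c-5p (−0.61) and let-7e-5p (−0.55), and between the wild-type courses 6 guides were higher and none lower in course 2. Of 5 miR-15/16 guides, miR-497a-5p (−1.27) and miR-195a-5p (−1.16) were lower and miR-16-5p was higher. Of 11 listed strands of the X-linked miR-322 and miR-503 cluster 4 were lower, with a median of −0.79, and miR-503-5p (−1.45) and miR-322-5p (−1.11) were among them. Over all 13 tested strands of that locus 5 were lower, with a median of −0.79. The listed strands also separated the wild-type courses, with 10 of 11 lower in course 2, beside 33% of all tested.

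Of 8 miR-29 and miR-30 guides, miR-29b-3p (−1.51) and miR-30a-5p (−0.60) were lower and miR-30d-5p (0.46) was higher. The miR-29 guides repress collagens. In the miR-99/100 and miR-125 families miR-99a-5p was higher (1.02) and miR-100-5p lower (−1.17), although their seeds are alike. Of 9 guides of the miR-17-92 group, miR-17-5p (0.32) was higher and miR-19a-3p (−0.40) lower. That group also holds miR-106b-5p, miR-93-5p and miR-25-3p, which come from a separate cluster on chromosome 5. None of 3 tested miR-221 and miR-222 strands was called, 1 of 7 miR-23/27/24 strands was lower (miR-24-1-5p, −0.74), and 1 of 4 miR-34 guides was higher. Of 9 let-7 passenger strands let-7d-3p was higher (1.19) and let-7i-3p lower (−0.53).

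The wild-type courses lay far apart in 2 imprinted clusters. The 49 listed miRNAs of the Dlk1-Dio3 cluster, expressed from the maternal chromosome 12, summed to 294 to 511 CPM in knockout labelled libraries, 41.2 to 125 CPM in wild-type course 2 and 10975 to 14752 CPM in course 1. The knockout lay between the wild-type courses and nearer to course 2. Most members passed the expression filter through course 1, where they are high, so the direction of those tested follows from the filter and no count or median over them is read. In the genotype fit miR-136-5p had a log2 difference of −5.94 and miR-377-3p one of −4.88. Both were also lower in wild-type course 2 than in course 1, by −8.24 and −6.63, so their calls are not read either. The 18 listed miRNAs of the Sfmbt2 cluster, expressed from the paternal chromosome 2, summed to 619 to 1698 CPM in the knockout. The sums were 1841 to 3508 CPM in wild-type course 2 and 443 to 1253 CPM in course 1. Low members can pass the filter through course 2, so the direction of those tested may partly follow from the filter. The 15 tested between the genotypes gave no call (median −0.82). Between the wild-type courses 16 of 16 were higher in course 2, beside 31.8% of all tested. Against course 2 alone 14 of 16 were lower in the knockout, beside 25.4% of all tested. Against course 1 alone 3 of 15 were higher, beside 29.4%. The 7 neural markers summed to 1359 to 3013 CPM in the knockout, 1599 to 3314 CPM in wild-type course 2 and 641 to 1093 CPM in course 1, so that the knockout range overlapped that of course 2. Of the 6 tested, 3 were higher in the knockout, beside 15% of all tested. These were miR-124-3p.1 (1.98), miR-124-3p.2 (1.93) and miR-128-3p (0.55). Both miR-124-3p entries fell under the filter between the wild-type courses and passed it only with the knockout, where they are high. Their direction follows from the filter, so neither it nor the count of 3 is read. Labelled miR-124-3p.1 was 8.33 to 69.1 CPM in the knockout, 2.14 to 11.5 CPM in wild-type course 2 and 0 to 21.1 CPM in course 1, and the part of other cells in these levels was not tested. Between the wild-type courses 2 of 4 tested neural markers were higher and 1 lower in course 2, beside 31.8% and 33% of all tested. Of 6 fibroblast markers 1 was higher and 3 lower in the knockout, beside 15% and 14.6% of all tested.

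**Figure D4:**
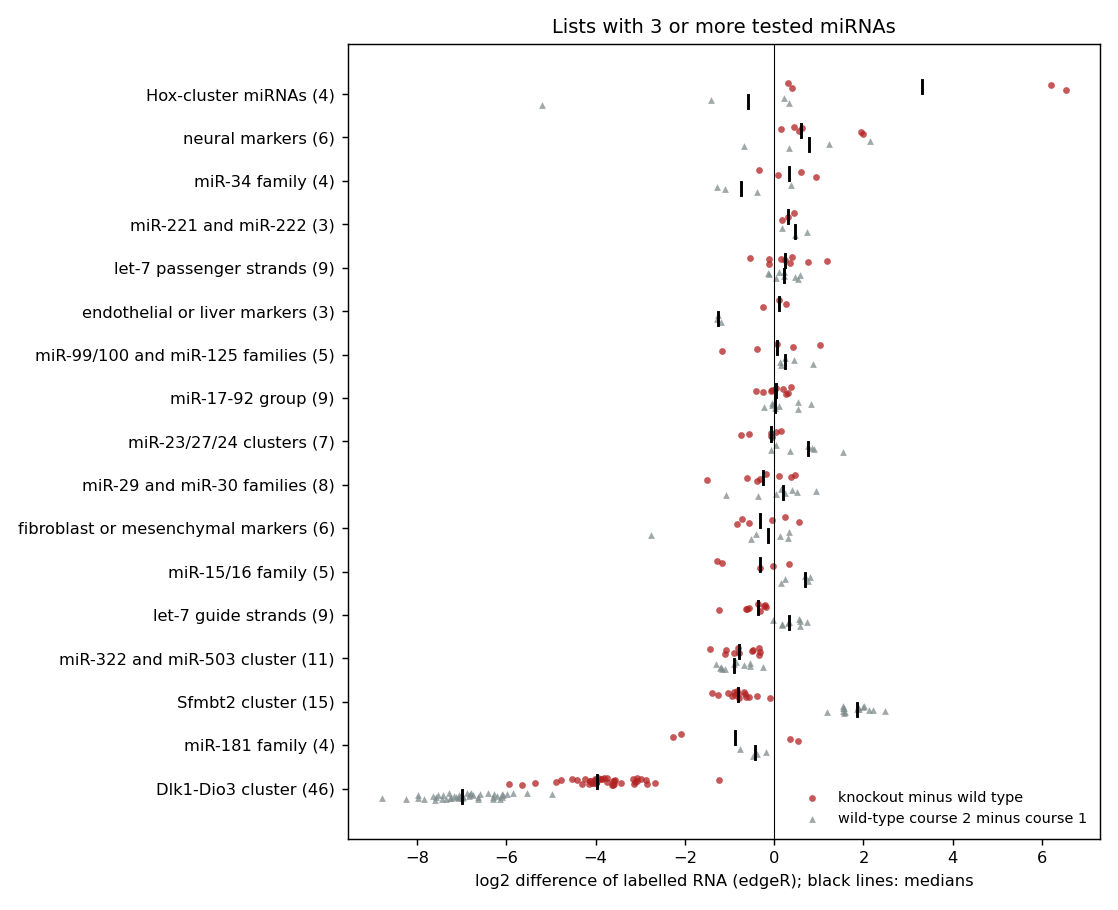
Log2 difference of labelled level (edgeR) for each member of the lists with 3 or more miRNAs tested between the genotypes (number in brackets), as red circles for knockout minus wild type and grey triangles for wild-type course 2 minus course 1, with a black line at each median. The Dlk1-Dio3 members shown are mostly those that passed the filter through wild-type course 1, and low Sfmbt2 members can have passed it through course 2. The Sfmbt2 medians are −0.82 and 1.86, and the let-7 guide medians lie on opposite sides of 0.

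Strands of a hairpin share their transcription, so both arms were compared where both were tested. Of 143 hairpins, 62 had at least 1 arm called, where 29.6% of all single miRNAs tested were called, 15% higher and 14.6% lower. Whether arms were called together more often than those shares give was not tested. Both arms were called in the same direction for 20, Mir7-1, Mir672 and Mir181c among them. Mir10a is counted there too, but its miR-10a-3p had almost no wild-type counts, so its pair of calls is not read. Only the arm more abundant in input was called for 25 and only the other arm for 14. Opposite directions were called for 3, of which Mirlet7d (let-7d-5p −0.62, let-7d-3p 1.19) and Mir33 (miR-33-5p −1.70, miR-33-3p 0.41) have each arm at 1 locus. The third, Mir26a-2 (miR-26a-5p 0.38, miR-26a-2-3p −0.88), shares its miR-26a-5p with Mir26a-1 on chromosome 9, so its arms cannot be compared as those of 1 hairpin. The same limit holds for Mir7-1 and for 29 of the 143 hairpins in all, and among the other 114, both arms were called in the same direction for 18. Arms differed by a median of 0.38 in absolute log2 difference and by more than 1 for 19 hairpins. With 0.92 between miR-7a-5p and miR-7a-1-3p, Mir7-1 ranked 20 of 143. Pulldown depends on uridines, and miRNAs called higher held a median of 6 uridines, those called lower 7 and those not called 7. The part of uridine number in these differences was not tested.

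Besides miR-7a-5p, 7 of 431 miRNAs changed in their difference with labelling time, so that 8 were called (1.86%), all 8 upward (1.86%) and none downward (0%), and 56 had an unadjusted p below 0.05. Largest among the 7 was miR-222-3p, which with miR-221-3p represses the cell-cycle inhibitor Cdkn1b. Labelled miR-222-3p had 993, 1299, 1530, 3353, 11348 and 16247 CPM in the knockout, 1467, 1614, 1658, 4121, 4626 and 5250 CPM in wild-type course 2 and 1532, 1615, 1960, 2733, 3323 and 3967 CPM in course 1. The knockout was below both courses at 2, 4 and 8 h and above both at 72 h and 1 week. The change was 0.40 ± 0.060 per doubling of hours for miR-222-3p and 0.34 ± 0.070 for miR-221-3p (SE, edgeR interaction, adjusted p = 0.0024 and 0.025). Labelled miR-221-3p ended at 26364 CPM in the knockout, against 12147 CPM in wild-type course 2 and 8554 CPM in course 1.

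Input levels were read beside these changes, although no input change with time was called (lowest adjusted p = 0.19). Input miR-222-3p was 3832, 3451, 3471, 3594, 7195 and 11663 CPM in the knockout, 2928 to 3861 CPM in wild-type course 2 and 2260 to 3937 CPM in course 1, so that the knockout inputs at 72 h and 1 week stood above its own earlier ones. Labelled miR-125b-5p, which targets differentiation and p53-pathway messages, had 12855, 19162, 24697, 59234, 144103 and 122362 CPM in the knockout, 22053 to 65625 CPM in wild-type course 2 and 18932 to 45015 CPM in course 1. Its input in the knockout was 69170 to 72760 CPM up to 24 h and 130918 and 153404 CPM at 72 h and 1 week. The change per doubling was 0.35 ± 0.052 in labelled miR-125b-5p (SE, edgeR interaction, adjusted p = 0.0024) and 0.15 in input. Input changes were 0.16 for miR-222-3p, 0.13 for miR-221-3p, 0.27 for miR-29b-1-5p and 0.21 for miR-125b-1-3p, but 0.03 for miR-92a-3p and −0.02 for miR-652-3p. The part of the changing input in the labelled change was not tested.

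Smaller changes per doubling were 0.38 ± 0.065 for miR-29b-1-5p, 0.25 ± 0.053 for miR-125b-1-3p, 0.22 ± 0.030 for miR-92a-3p and 0.17 ± 0.036 for miR-652-3p (SE, edgeR interaction, adjusted p = 0.0067, 0.026, 0.0022 and 0.026). Over 2 to 24 h alone no miRNA was called by edgeR, and the slopes were 0.32 for miR-125b-5p, 0.19 for miR-92a-3p and 0.15 for miR-222-3p. Without the 4 h libraries 1 call was left, miR-7a-5p. With course as a replicate block 75 were called, 54 upward and 21 downward. Against wild-type course 2 alone 75 of 386 were called, 24 upward and 51 downward, and against course 1 alone 84 of 411, 60 upward and 24 downward. Against course 2 on the standards 84 were called, 9 upward and 75 downward. Of the 8, miR-92a-3p and miR-652-3p were not called against course 2 with TMM (adjusted p = 0.11 and 0.32), nor were these and miR-125b-1-3p on the standards (adjusted p = 0.70, 0.98 and 0.13). In input RNA none of 565 was called (0%) in either direction (0% and 0%), and 23 had an unadjusted p below 0.05. The same interaction between the wild-type courses called 35 of 412 (8.5%), 4 (0.971%) upward and 31 (7.52%) downward in course 2, and in their inputs 13 of 533 (2.44%), 6 (1.13%) upward and 7 (1.31%) downward. The 5 lowest p among downward changes belonged to miR-301a-3p (−0.12), miR-15a-3p (−0.24), miR-181b-1-3p (−0.43), miR-99a-3p (−0.24) and miR-3081-3p (−0.27), none called.

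**Figure D5:**
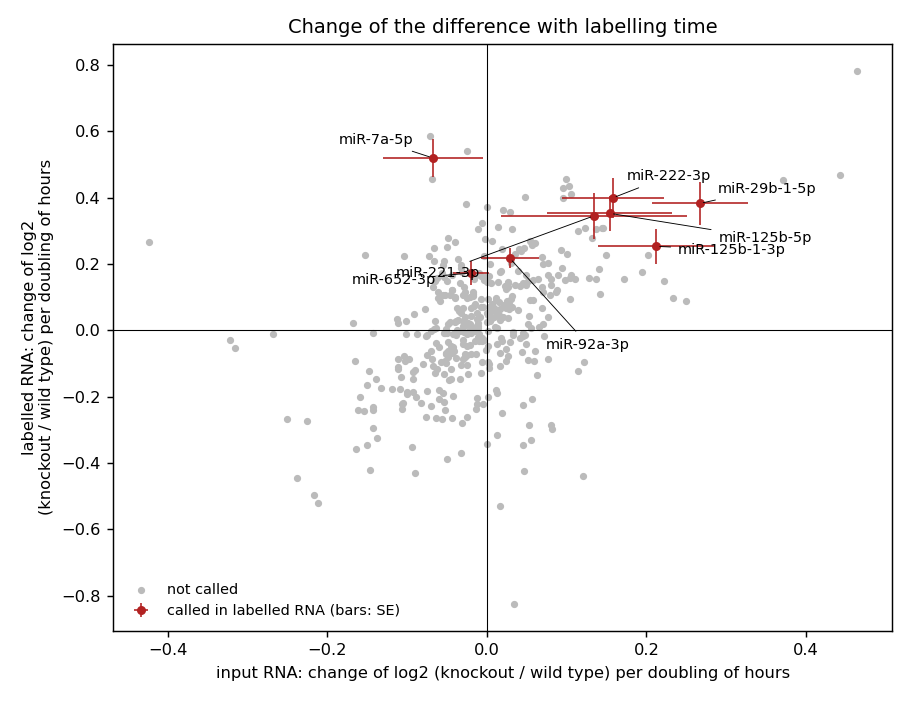
Change of the log2 ratio of knockout to wild type per doubling of labelling hours, in labelled RNA (vertical axis) against input RNA (horizontal axis), with 1 point a miRNA, grey for those not called and red with SE bars for the 8 called in labelled RNA. miR-7a-5p stands at 0.52 in labelled and −0.07 in input RNA, while miR-125b-5p, miR-222-3p, miR-221-3p, miR-29b-1-5p and miR-125b-1-3p lie at 0.13 to 0.27 in input RNA.

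Differences among input and labelled RNA were set against each other in 1 model. Among input libraries 244 of 550 miRNAs (44.4%) differed between knockout and wild type, 129 (23.5%) higher and 115 (20.9%) lower. The labelled difference departed from the input difference for 7 of 548 (1.28%), 4 (0.73%) upward and 3 (0.547%) downward, and 40 had an unadjusted p below 0.05. Between the wild-type courses it departed for 186 of 552 (33.7%), 162 (29.3%) upward and 24 (4.35%) downward in course 2, and in fits of the same form 40 departed for the knockout against course 2 and 138 against course 1. With each labelled library paired to its input as a replicate block 32 were called, 15 upward and 17 downward. Without the 72 h labelled library of wild-type course 2 calls were left for 3, miR-7a-5p, let-7b-5p and miR-486ab-3p.

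Besides miR-7a-5p, let-7b-5p (chromosome 15, 85707325 to 85707346, plus strand) stood out among abundant miRNAs. It had 4425, 5560, 6424, 9885, 11416 and 9041 CPM in knockout labelled libraries, 17032, 15620, 18700, 22155, 21860 and 17691 CPM in wild-type course 2 and 11347, 17125, 19416, 19091, 16993 and 14732 CPM in course 1. The knockout was below both at all times, with a log2 difference of −1.23 ± 0.15 (SE, edgeR, adjusted p = 5.7e-05). Input let-7b-5p did not differ detectably (log2 −0.05), with 12709 to 16762 CPM in the knockout, 13220 to 17345 CPM in wild-type course 2 and 10788 to 16389 CPM in course 1. Labelled-to-input ratios of let-7b-5p were 0.335 to 0.774 in the knockout, 1.05 to 1.39 in wild-type course 2 and 0.802 to 1.37 in course 1. The interaction was −1.07 ± 0.20 (SE, edgeR, adjusted p = 0.0044), and adjusted p = 0.0073 without the 72 h library.

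Labelled epithelial miR-205-5p had 30 counts in all in the knockout, 4 in wild-type course 2 and 5 in course 1, while its input was 52.3 to 153 CPM in the knockout and at most 3.41 CPM in either wild-type course. Its interaction of −3.75 (adjusted p = 0.036) was not called without the 4, 8, 24 or 72 h libraries (adjusted p = 0.092 to 0.17) or without wild-type course 1 (0.084). Upward departures were 1.97 for miR-486ab-3p, 0.80 for miR-423-3p, 0.79 for miR-744-5p and 0.42 for miR-218-5p (adjusted p = 0.0044, 0.036, 0.042 and 0.017). For miR-423-3p and miR-744-5p the call was lost without the 4, 72 h or 1 week libraries, and for miR-218-5p without any 1 time. Next in p and not called were miR-151-3p (0.73, adjusted p = 0.14), miR-139-5p (−3.44, 0.085) and miR-26a-2-3p (−1.62, 0.13).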

How the data were processed

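All values are raw read counts per mature miRNA as the authors deposited them, with no normalization. Per the submitters' processing notes the knockout reads were trimmed with cutadapt, and the wild-type notes also name STAR 2.4, HTSeq 0.9.1 and the build mm10/GRCm38. Adaptors held random bases per the labels' protocols, but whether duplicates were removed is not given in the sources used here, so counts are reads. Of 15 tables, 6 were used. Genotypes, wild-type courses, the change with log2 hours and labelled against input were compared with edgeR 4.0.16 in R 4.3.3 (two-sided quasi-likelihood test after filterByExpr and TMM scaling, with Benjamini-Hochberg adjusted p below 0.05 over all miRNAs of a fit), with labelling time as a factor. DESeq2 1.42.0 was an alternative. The scripts were tested on simulated counts. CPM use the TMM-scaled totals of labelled and input libraries apart. Half-lives come from a fit of A(1 − exp(−kt)) to miRNAs with at least 20 counts in each library, with the noise set at 0.2.

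Named are the miR-7 and miR-671 strands, the 10 largest called differences each way with the knockout outside both wild-type courses at all times, the 5 lowest p each way in the interactions, the 10 most abundant and up to 4 members of each list. Members, lists and rule were chosen with earlier results of these data known. Comparisons that share the knockout or wild-type libraries are not independent. Deviations of a culture's labelled and input library from their group means correlated at 0.894 to 0.949 over 6 times. Those of labelled libraries of 1 course correlated at 0.854 to 0.953 over 15 pairs of times. The knockout has 1 library a group and so no deviation, and both ranges restate how the wild-type courses differ. The ranges overlap, so pairing by culture was not shown beyond that by course, and block results are given as alternatives. The settings with the 22, 24 and 26 nt standards, with wild-type course 2 alone on the summed standards, without the 72 h library of wild-type course 2 and with 2 to 24 h only were chosen after seeing the data.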

Additional observations from a re-analysis of the deposited data

Results flagged for a closer look

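Between genotypes, 8 miRNAs differed in how the labelled level changed with labelling time, by the test of the interaction of genotype with log2 hours. The change of the log2 ratio of knockout to wild type per doubling of hours was 0.519 for miR-7a-5p, 0.399 for miR-222-3p, 0.382 for miR-29b-1-5p, 0.352 for miR-125b-5p, 0.345 for miR-221-3p, 0.253 for miR-125b-1-3p, 0.217 for miR-92a-3p and 0.172 for miR-652-3p. All 8 are positive in the fit over both wild-type courses. Fits of 2 courses at a time called 75 changes for the knockout against wild-type course 2, 51 of them negative, 84 against course 1, 24 of them negative, and 35 between the wild-type courses, 31 of them negative. With course as a replicate block 75 were called, 21 of them negative.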

How the results depend on the processing

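Calls between knockout and wild type numbered 124 in the fit reported, 127 with RLE factors, 113 without the count filter and 80 to 114 without 1 time (80 without 72 h). They were 207 with DESeq2, 14 with the summed standards (all higher), 349 with the 22, 24 and 26 nt standards, 213 to 255 without 1 wild-type replicate, 237 with the replicate block, 0 of 506 with counts summed per course, 52 for 2 to 8 h and 40 for 24 h to 1 week. The summed standards moved the median log2 difference to 0.55 and the 22, 24 and 26 nt ones to −3.90, and the mix of standards differed between courses. Calls against both courses were 67 with the summed standards, against 105. Calls between wild-type courses were 408 with the summed standards and 411 with the 22, 24 and 26 nt ones, and DESeq2 put their median at −0.09, against 0.02. Changes with labelling time numbered 25 with DESeq2, 0 with either set of standards or with 2 to 24 h only, 4 without the filter, 2, 1, 2, 4 and 3 without 2, 4, 8, 72 h and 1 week, 75 to 84 without 1 wild-type replicate, 75 with the replicate block and 84 with wild-type course 2 alone on the standards. Departures of labelled from input numbered 13 with RLE factors, 20 with DESeq2, 509 and 0 with the summed and the 22, 24 and 26 nt standards, 4 and 11 without 4 h and 1 week, 40 to 138 without 1 wild-type replicate, 32 with the replicate block and 3 without the 72 h library of wild-type course 2. The block was the only way in which pairing was used, and where it moved a count that count is also given with the result.

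Some values changed sign. With the summed standards the knockout difference was 0.19 for miR-21a-5p, 0.56 for let-7i-5p, 0.41 for miR-24-3p and 0.25 for miR-23a-3p, and labelled against input was 4.46 for miR-7a-5p, 5.82 for let-7b-5p, 3.99 for miR-205-5p, 3.13 for miR-139-5p and 4.48 for miR-26a-2-3p. Input libraries held 80 to 320 standard counts in wild-type course 1, against 31779 to 64420 in the knockout and 17632 to 24585 in course 2. Scaling by standards shifts all miRNAs of a library together, so the signs of labelled against input on that scale are not read. Without 2, 4 and 8 h in turn the knockout difference was 0.018, 0.021 and 0.033 for miR-24-3p and 0.11, 0.053 and 0.080 for miR-23a-3p, and without the filter 0.048 and 0.069. Without 1 wild-type replicate it was −0.40 to 0.49 for miR-24-3p, −0.59 to 0.99 for miR-23a-3p and −0.26 to 0.52 for miR-27a-3p. With the replicate block it was 0.0061 for miR-24-3p and 0.16 for miR-23a-3p, which was 0.077 from 24 h on. For miR-27a-3p it was −0.011 without 1 week, −0.055 summed per course, −0.0028 for 2 to 8 h and −0.032 from 24 h on. It was −0.54 for miR-671-5p from 24 h on and −0.35 for miR-125b-5p over 2 to 8 h. The time change of miR-7a-1-3p was −0.022 with RLE factors, −0.016 with DESeq2, −0.13 with the summed standards, −0.048 without the filter, −0.13, −0.061 and −0.019 without 2, 4 and 8 h, and −0.082 to 0.095 without 1 wild-type replicate. Labelled against input was −0.0077 for miR-671-3p with RLE factors, −0.15 without 72 h, −0.13 without 1 week and −0.33 to 0.71 without 1 wild-type replicate. The cause was not tested.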
